A study of Mus musculus with 8 samples.

Results

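Tissue factor pathway inhibitor (Tfpi), its relative Tfpi2 and 7 further genes of coagulation control and plasminogen activation (F3, Thbd, Procr, Plat, Plau, Plaur and Serpine2) were followed across 3 engineered mouse cell lines. The 9 genes were chosen from these same arrays: Tfpi was picked on its lower level in Ind-8 cells, and the others were added around it as partners in the same system, with earlier results of the arrays known. Their levels and differences are therefore given as a description, with no p-value, and nothing is read from how many lie past the threshold used for all probe sets. A gene was found through the RefSeq transcript that names its probe set. Each of the 9 genes had 1 probe set, out of 15653 named genes and 22523 probe sets in all.

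Coagulation in tissue starts when tissue factor, a membrane protein, binds factor VII, and Tfpi blocks that complex together with activated factor X. Thrombin, formed downstream, is restrained on cell surfaces by thrombomodulin and the endothelial protein C receptor, which together promote activation of protein C. A separate arm converts plasminogen to plasmin, the protease that dissolves fibrin, through tissue-type and urokinase-type activators, and serpins inhibit these activators.

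Total RNA was measured on 8 Affymetrix mouse arrays. Ind-8 (ASYM, 3 arrays) is a p53-null line made from fetal fibroblasts. Zinc turns on its added mouse p53 cDNA through a modified metallothionein promoter of human origin, and the cells then self-renew asymmetrically. Con-3 cells (SYM, 3 arrays) are the p53-null vector control, although the labels present them as the line from which Ind-8 came. The third line, tI-3 (p53SYM, 2 arrays), was derived from Ind-8 and also makes p53 under zinc. Its constitutive IMPDH II cDNA keeps the divisions symmetric. All cultures held 65 µM ZnCl2 for 48 h and 5 µg/ml puromycin, and the tI-3 medium alone also held G418. Each state is 1 cloned line, so state and line cannot be told apart, nor can G418 and tI-3.

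The label checks were read first. Trp53 averaged 5.79 ± 0.09 (log2, SD) in Ind-8, 5.25 ± 0.04 in Con-3 and 5.64 ± 0.07 in tI-3, and it was higher than in Con-3 in both p53-inducible lines (limma adjusted p = 0.00192 for Ind-8 and 0.0144 for tI-3). The tI-3 difference of 0.39 became 0.34 without tI-3 replicate 2, and the call was lost. With the control level as a block the call was lost too (0.38, limma adjusted p = 0.102). Cdkn1a, the cyclin-dependent kinase inhibitor induced by p53, averaged 9.66 ± 0.07, 5.86 ± 0.16 and 7.44 ± 0.15 in the same order. Impdh2 averaged 12.19 ± 0.03, 12.53 ± 0.02 and 12.36 ± 0.02, so the line with the IMPDH II cDNA did not have the highest value, and its difference from Ind-8 did not pass the test (limma adjusted p = 0.163). Which parts of the Trp53 and Impdh2 transcripts the probes cover was not examined, so how far either value reports the cDNA of the line is unknown, as is what the Trp53 value in the p53-null Con-3 line measures. Mt1, a metallothionein that zinc induces, lay between 13.47 and 13.95 on every array.

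Of 12 fibroblast markers, 9 had a mean above 4.30, the level under which the dimmest 25% of probe sets lay, with Vim brightest, and Thy1, Lum and Fap were dim. Of 6 endothelial markers, Pecam1, Cdh5, Tek, Tie1 and Emcn were dim and Kdr was the brightest at 6.15. The epithelial list had 2 of 5 markers above that level, led by Krt19, and Epcam, Cdh1 and Krt18 were dim. The list of blood and macrophage markers had 2 of 5, led by Csf1r, and Ptprc, Adgre1 and Itgam were dim. All 4 platelet markers lay above it, led by Itga2b at 7.23. Of 5 smooth muscle markers, 4 did so, with Acta2 brightest and Myh11 dim.

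Marker levels also moved with the lines. The summed level of the smooth muscle list, as log2, was 14.78, 14.63 and 14.91 on the Ind-8 arrays, 14.80, 14.49 and 14.74 on the Con-3 arrays, and 13.35 and 13.39 on the tI-3 arrays. The epithelial list gave 10.18, 10.53 and 10.55 in Ind-8, 9.29, 9.91 and 9.76 in Con-3, and 9.47 and 9.48 in tI-3. The first list was thus lowest in tI-3 and the second highest in Ind-8. Acta2 led the smooth muscle sum, with line means of 14.07, 14.09 and 13.21 in Ind-8, Con-3 and tI-3. Tagln (12.70, 12.45 and 9.70), Cnn1 (11.58, 11.24 and 7.87) and Actg2 (10.05, 9.39 and 5.10) were lower in tI-3 by wider margins, and the dim Myh11 (3.55, 3.62 and 3.91) was highest there. Krt19 carried the epithelial sum, with line means of 10.35, 9.52 and 9.31 in Ind-8, Con-3 and tI-3. Epcam (4.24, 4.19 and 4.49) and Krt8 (4.49, 4.33 and 4.82) had their highest mean in tI-3, and Cdh1 (3.52, 3.75 and 3.53) in Con-3. The fibroblast list gave 15.65, 15.76 and 15.74 in Ind-8, 15.35, 15.45 and 15.46 in Con-3, and 15.45 and 15.29 in tI-3, so it too was highest in Ind-8. Vim, S100a4 and Fn1 were its brightest genes, each with its highest mean in Ind-8. Other members were ordered otherwise. Col3a1 had line means of 8.80, 9.07 and 6.38 in Ind-8, Con-3 and tI-3, highest in Con-3, and Thy1 (3.88, 4.19 and 4.56), Dcn (5.59, 5.60 and 5.83) and Fap (3.64, 3.58 and 3.76) were highest in tI-3. Col1a1 (12.34, 11.91 and 10.85) and Pdgfra (7.54, 7.06 and 6.02) were, like Col3a1, lowest in tI-3. The endothelial list ran from 6.99 to 7.33 in Ind-8 and Con-3 and was 7.44 and 7.58 in tI-3. The list of blood and macrophage markers ran from 6.65 to 6.88 in those lines and was 6.93 and 7.02 in tI-3. The last pair of lists was thus highest in tI-3, at low levels. Their sums were led by Kdr (line means of 5.84, 6.16 and 6.60) and Csf1r (5.32, 5.43 and 5.76), whereas Tek, Ptprc and Itgam had their highest mean in Con-3. The platelet list gave 8.03, 8.18 and 8.25 in Ind-8, 7.98, 8.09 and 8.33 in Con-3, and 8.30 and 8.51 in tI-3, so tI-3 lay above Ind-8 and Con-3 overlapped both. Itga2b and Gp9 had their highest mean in tI-3, whereas Gp1bb (6.25, 5.98 and 5.93) had its highest in Ind-8 and its lowest in tI-3. The part of these marker levels in the differences between lines was not tested. In RNA from whole cultures, fewer cells of a type and less RNA per cell cannot be told apart.

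One array stood apart. Con-3 replicate 3 had a mean of 10.63 over 3 probe sets for 18S ribosomal RNA, against 5.58 to 6.46 on the other arrays. The mean of 14 hybridization control probe sets was 9.62 on that array and 9.43 and 9.71 on the tI-3 arrays, against 8.98 to 9.16 on the rest. Control level and line therefore cannot be told apart for Ind-8 against tI-3. Ind-8 can be set against the 2 Con-3 arrays of low control level, and tI-3 against the 1 of high level. With this level as a block, which rests on Con-3 replicate 3 alone as the link, 708 probe sets passed a limma adjusted p under 0.05 in that comparison instead of 7009. Single arrays also moved such counts: without tI-3 replicate 2 it was 2781, and 3093 instead of 5715 for tI-3 against Con-3. For a single gene, the block value for Ind-8 against tI-3 follows from its differences within the low and high control levels. It is therefore no separate reading from them.

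Tfpi, the inhibitor of the tissue factor and factor VII complex, had log2 values of 4.75, 4.82 and 4.85 on the Ind-8 arrays. It had 8.19, 7.98 and 7.81 on the Con-3 arrays. On the tI-3 arrays it had 7.07 and 7.15. The 3 lines did not overlap: Ind-8 was lowest, Con-3 highest and tI-3 between them. Line means were 4.81 ± 0.05 (SD, 3 arrays), 7.99 ± 0.19 (3 arrays) and 7.11 ± 0.05 (2 arrays). The Ind-8 level was thus 9.1-fold below Con-3 (log2 difference -3.19, SE 0.11, 95% interval -3.42 to -2.95). Against tI-3 it was 4.94-fold lower (log2 difference -2.30, SE 0.12, 95% interval -2.56 to -2.04). These are differences in mRNA, and the protein was not measured on the arrays. The Ind-8 values lay little above the dim level of 4.30, so the sizes of both differences rest on signal near that level. The tI-3 level in turn was 1.84-fold below Con-3 (log2 difference -0.88, SE 0.12). Arrays of like control level gave a log2 difference of -3.28 for Ind-8 minus Con-3, with 2 Con-3 arrays, and of -0.70 for tI-3 minus Con-3, with 1 Con-3 array.

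**Figure D1:**
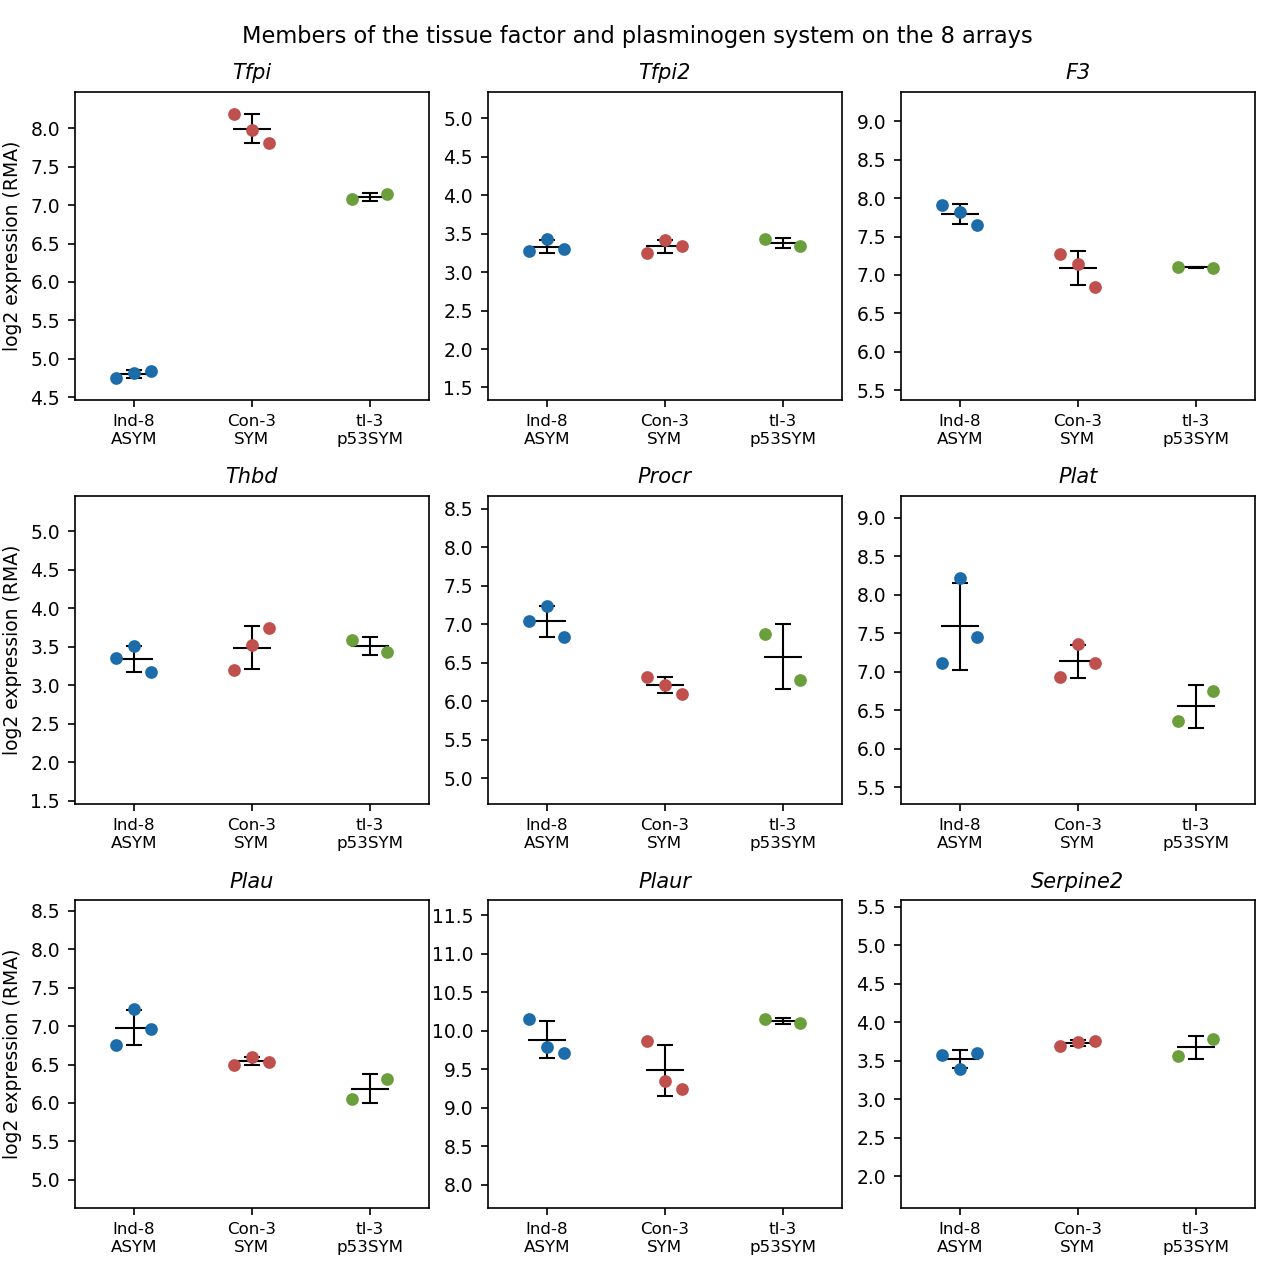
Log2 expression of the 9 genes on each of the 8 arrays, by line (points), with the line mean and SD (horizontal mark and bars); each panel spans 4 log2 units around its own values. Tfpi runs from 4.75 in Ind-8 to 8.19 in Con-3, while Tfpi2, Thbd and Serpine2 stay under 4 on every array.

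Tfpi2, a related inhibitor with a preference for plasmin and other proteases, was dim, between 3.25 and 3.43 on the 8 arrays. Its line means were 3.33, 3.33 and 3.38, and all 3 lines overlapped. At this brightness an array gives little information on a difference.

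F3 encodes tissue factor itself, the initiator that Tfpi restrains. Its values were 7.91, 7.82 and 7.65 in Ind-8, 7.27, 7.14 and 6.85 in Con-3, and 7.10 and 7.09 in tI-3. Every Ind-8 array lay above every array of the other lines, and Con-3 and tI-3 overlapped. F3 was 1.63-fold higher in Ind-8 than in Con-3 (log2 difference 0.70, SE 0.12) and 1.62-fold higher than in tI-3 (0.69, SE 0.13). Between tI-3 and Con-3 the log2 difference was 0.01, with a 95% interval of -0.29 to 0.31. Tfpi and F3 thus differed in opposite directions in Ind-8. The Ind-8 against tI-3 difference of F3 was 0.33 with the control level as a block. Within a control level, F3 differed by 0.58 for Ind-8 minus Con-3 and by 0.25 for tI-3 minus Con-3.

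RefSeq (GRCm38.p6) lists promoter windows for 6 of the 9 genes. Those of Tfpi and F3 are shown because the inhibitor and its target differed in opposite directions in Ind-8. Each run covers 234 bases, from 250 to 17 bases before the outermost listed start, and lies outside the gene. The Tfpi run is chr2:84476776-84477009 on the minus strand and the F3 run is chr3:121723287-121723520 on the plus strand. Capitals mark matches, on either strand, to TGANTCA (the AP-1 site), GGGCGG (the GC box), TATAAA (the TATA box), CCAAT (the CCAAT box) and the p53 half-site.
Tfpi: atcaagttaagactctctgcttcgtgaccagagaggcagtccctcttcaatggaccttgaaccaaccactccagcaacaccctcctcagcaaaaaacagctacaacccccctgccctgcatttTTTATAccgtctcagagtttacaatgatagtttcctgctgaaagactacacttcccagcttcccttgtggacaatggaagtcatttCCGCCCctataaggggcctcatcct
F3: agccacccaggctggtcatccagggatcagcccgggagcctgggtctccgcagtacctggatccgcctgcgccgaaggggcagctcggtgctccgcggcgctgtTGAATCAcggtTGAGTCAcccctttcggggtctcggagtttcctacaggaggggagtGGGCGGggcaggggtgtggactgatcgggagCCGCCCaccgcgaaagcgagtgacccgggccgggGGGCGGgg
The Tfpi run held 1 TATAAA and 1 GGGCGG, and the F3 run held 2 TGANTCA and 3 GGGCGG. Of 32851 listed windows of this length, 6.45% held TGANTCA, 30.4% GGGCGG, 11.9% TATAAA, 32.5% CCAAT and 6.71% the p53 half-site. Neither run held CCAAT or the p53 half-site, which says only that these letters are not in these windows.

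Of the protein C genes, Thbd encodes thrombomodulin, which redirects thrombin toward protein C. It was dim in every line, between 3.17 and 3.75, and its lines overlapped. Procr encodes the endothelial protein C receptor, which presents protein C to that complex. Its values were 7.04, 7.23 and 6.84 in Ind-8, 6.31, 6.21 and 6.10 in Con-3, and 6.87 and 6.28 in tI-3. Ind-8 lay wholly above Con-3, whereas 1 tI-3 array lay in the range of Ind-8 and the other in that of Con-3. Procr was 1.78-fold higher in Ind-8 than in Con-3 (log2 difference 0.83, SE 0.15). Against tI-3 the log2 difference was 0.46 (SE 0.17), and it was 0.76 without tI-3 replicate 1 and 0.16 without tI-3 replicate 2. For tI-3 against Con-3 it was 0.37, and 0.07 and 0.67 without those replicates. Within a control level, Procr differed by 0.78 for Ind-8 minus Con-3 and by 0.48 for tI-3 minus Con-3, and the block gave 0.30 for Ind-8 against tI-3. The position of tI-3 for this gene thus rested on single arrays.

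Plat encodes tissue-type plasminogen activator. Its values were 7.11, 8.22 and 7.45 in Ind-8, 6.93, 7.37 and 7.11 in Con-3, and 6.36 and 6.75 in tI-3. It varied more within lines than most probe sets: its residual SD of 0.40 lay at percentile 98.8 of all probe sets. Ind-8 and Con-3 overlapped (log2 difference 0.46, 95% interval -0.08 to 0.99), whereas tI-3 lay below both. In every line replicate 1 was lowest and replicate 2 highest. With the replicate number as a block, Ind-8 against Con-3 was again 0.46, with an SE of 0.14 instead of 0.24. The numbers were not taken to pair the arrays. Ind-8 was 2.06-fold above tI-3 (log2 difference 1.04, SE 0.27). Without Ind-8 replicate 2, the highest array, this difference was 0.73 and that from Con-3 was 0.14, and without Ind-8 replicate 1 the latter was 0.70. Within a control level, Plat differed by 0.44 for Ind-8 minus Con-3 and by -0.56 for tI-3 minus Con-3. With the control level as a block, Ind-8 against tI-3 was 1.00 (SE 0.48). The tI-3 against Con-3 difference was -0.58, and -0.39 without tI-3 replicate 1.

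Plau encodes urokinase, the activator that acts mainly at cell surfaces. It had values of 6.76, 7.22 and 6.96 in Ind-8, 6.50, 6.60 and 6.54 in Con-3, and 6.06 and 6.32 in tI-3. The order of the lines was Ind-8, Con-3 and tI-3, with no overlap between neighbours. Ind-8 was 1.35-fold above Con-3 (log2 difference 0.43, SE 0.12) and 1.73-fold above tI-3 (0.79, SE 0.14), and tI-3 was 1.28-fold below Con-3 (-0.36, SE 0.14). The last value was -0.23 without tI-3 replicate 1. Within a control level, Plau differed by 0.43 for Ind-8 minus Con-3 and by -0.35 for tI-3 minus Con-3, close to the values over all arrays. The block, which combines these differences, gave 0.78 (SE 0.24) for Ind-8 against tI-3.

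Plaur encodes the receptor that holds urokinase at the cell surface. Its values were 10.15, 9.78 and 9.71 in Ind-8, 9.87, 9.35 and 9.24 in Con-3, and 10.16 and 10.10 in tI-3. Con-3 and Ind-8 overlapped, Ind-8 and tI-3 overlapped, and tI-3 lay wholly above Con-3. The log2 difference between tI-3 and Con-3 was 0.64 (SE 0.19, 95% interval 0.23 to 1.06), and 0.88 at the high control level. Ind-8 exceeded Con-3 by 0.40 (SE 0.17), by 0.26 without Ind-8 replicate 1 and by 0.59 without Con-3 replicate 1. With the replicate number as a block that difference was 0.40 (SE 0.11). Ind-8 against tI-3 gave -0.24 (SE 0.19), which was -0.38 without Ind-8 replicate 1, -0.16 without Ind-8 replicate 3 and -0.61 with the control level as a block. The receptor thus had another order of lines than its ligand, which was lowest in tI-3. Serpine2, or protease nexin 1, a serpin that inhibits thrombin and the plasminogen activators, was dim at 3.40 to 3.78. Ind-8 and Con-3 did not overlap for it, with a log2 difference of -0.21 (95% interval -0.42 to 0.01).

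**Figure D2:**
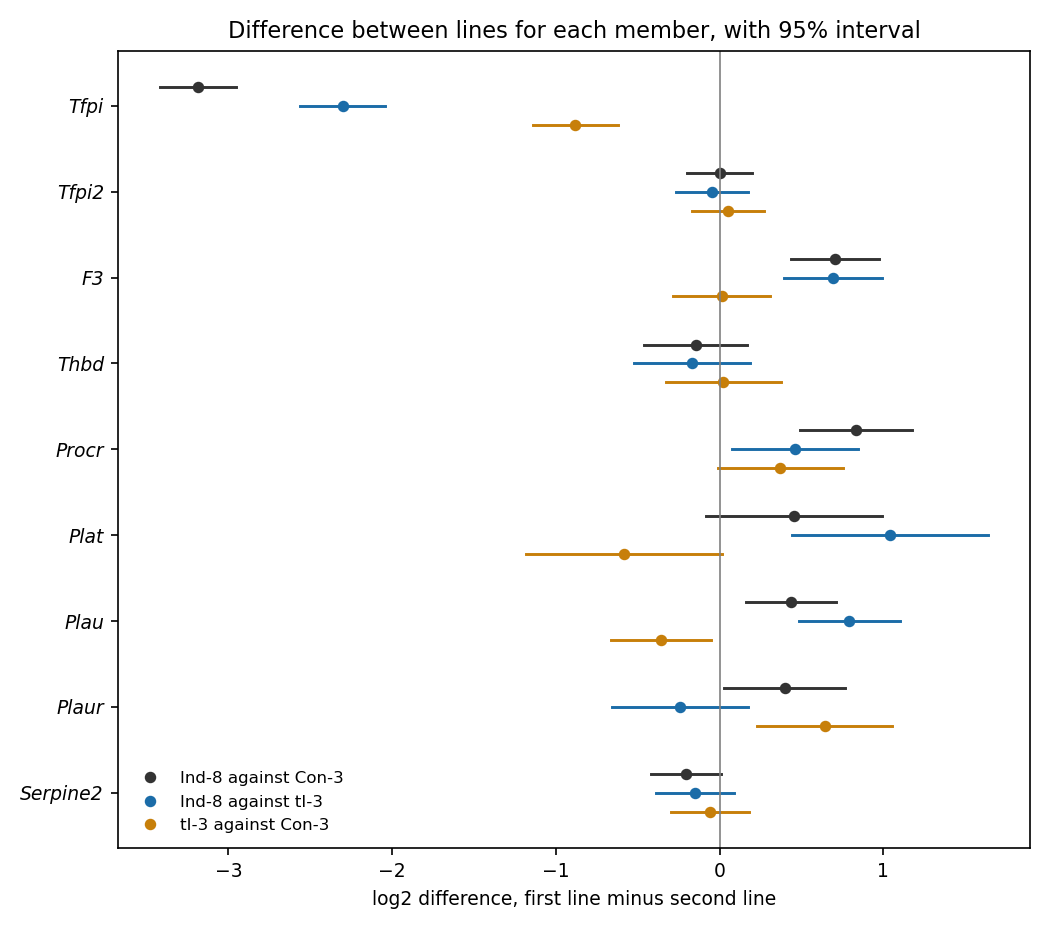
Log2 difference between lines for each of the 9 genes (points, first line minus second) with 95% intervals (lines) from the fit over all 8 arrays. Tfpi has negative differences in all 3 comparisons, -3.19, -2.30 and -0.88, and F3 has positive differences of 0.70 and 0.69 for Ind-8 against the other lines.

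The threshold used for counts was a limma adjusted p under 0.05. In Ind-8 against Con-3, 10.9% of all probe sets passed it as higher and 11% as lower, and 3 of the 9 genes did so as higher (F3, Procr and Plau) and 1 as lower (Tfpi). The number of higher genes was 2 without Ind-8 replicate 2, Ind-8 replicate 3, Con-3 replicate 2 or Con-3 replicate 3. The control level as a block gave the same values as leaving out Con-3 replicate 3 in this comparison. In Ind-8 against tI-3 the shares were 15.6% and 15.5%, and 3 genes were higher (F3, Plat and Plau) and 1 lower (Tfpi), but 0 higher and 1 lower in limma with the control level as a block. In tI-3 against Con-3 they were 10.2% and 15.1%, and 1 gene was higher (Plaur) and 1 lower (Tfpi). In the last comparison 1 of the 9 genes was left without Con-3 replicate 2, Con-3 replicate 3 or tI-3 replicate 1. Because the genes were chosen on these arrays, nothing is read from their counts. The comparisons share arrays, so the counts are not independent of each other.

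The rest of the system was taken from lists of 50 genes, of which 47 had a probe set, 24 of them above the dim level. In Ind-8 against Con-3, 3 were higher and 2 lower, which is 6.38% and 4.26% beside 10.9% and 11% of all probe sets. The median log2 difference was -0.04 beside -0.06 over all probe sets. In Ind-8 against tI-3, 8 were higher and 2 lower (17.0% and 4.26%, beside 15.6% and 15.5%), with medians of -0.09 and -0.06. In tI-3 against Con-3, 4 were higher and 5 lower (8.51% and 10.6%, beside 10.2% and 15.1%), with medians of 0.02 and 0.04. These shares are not like for like, because 24 of the 47 genes lay above the dim level, against 16892 of all 22523 probe sets. Among the 24 genes above the dim level, 12.5% were higher and 8.33% lower in Ind-8 against Con-3, beside 14.2% and 14.2% of all probe sets above it. The same shares were 33.3% and 4.17% in Ind-8 against tI-3, beside 20.5% and 17.3%, and 8.33% and 20.8% in tI-3 against Con-3, beside 12.2% and 19.9%. Single arrays moved these counts. In Ind-8 against Con-3, 9 genes passed without Ind-8 replicate 3 and 8 without Con-3 replicate 1, instead of 5. Without tI-3 replicate 2 each of the other comparisons had 4, and with the control level as a block Ind-8 against tI-3 had 1.

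Most coagulation factors are made in liver, and 12 of the 16 on the list were dim here. In Ind-8 against Con-3, 0 of the 16 passed, beside 10.9% higher and 11% lower among all probe sets. In Ind-8 against tI-3, 0 were higher and 2 lower (12.5%), beside 15.6% and 15.5%. In tI-3 against Con-3, 3 were higher (18.75%) and 0 lower, beside 10.2% and 15.1%. Prothrombin (F2) and kininogen (Kng1) were lower in Ind-8 than in tI-3 (log2 differences -0.44 and -0.72), and these genes and Vwf were higher in tI-3 than in Con-3 (0.40, 0.60 and 0.49). Kng1 and Vwf were among the dim genes, with means of 4.24 and 4.16 over all arrays, where an array gives little information on a difference. Their calls and those of F2 rested on single arrays, while the differences kept their sign when those arrays were left out. Without tI-3 replicate 2 none of the calls of F2 and Kng1 held: Ind-8 minus tI-3 was -0.36 and -0.65 (limma adjusted p = 0.121 and 0.0632), and tI-3 minus Con-3 was 0.32 and 0.53 (limma adjusted p = 0.175 and 0.121). Against Con-3, the call of F2 was also lost without Con-3 replicate 1 (0.35, limma adjusted p = 0.0653) or Con-3 replicate 2 (0.38, limma adjusted p = 0.0729), and that of Kng1 without Con-3 replicate 2 (0.49, limma adjusted p = 0.0536). The call of Vwf was lost on leaving out any 1 of the 5 tI-3 and Con-3 arrays, with differences of 0.35 to 0.62, and Vwf passed in Ind-8 against Con-3 without Ind-8 replicate 3 (0.59, limma adjusted p = 0.00626). Another probe set of Kng1 did not pass (limma adjusted p = 0.209 and 0.263). None of the 5 calls of F2, Kng1 and Vwf held with the control level as a block or after the arrays were quantile-normalized again. The block gave -0.23 and 0.26 for F2, but -0.80 and 0.65 for Kng1 and 0.46 for Vwf, which are as large as, or close to, the values without it. The call of Vwf was also lost after centring the arrays on a common median (0.49, limma adjusted p = 0.0547). After quantile normalization Vwf passed in Ind-8 against Con-3 (0.50, limma adjusted p = 0.0445).

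Among 9 other anticoagulant genes, Pros1, which encodes protein S, the cofactor of activated protein C, was up-regulated in Ind-8. Its values were 7.70, 8.04 and 7.62 in Ind-8, 6.47, 6.74 and 6.53 in Con-3, and 6.92 and 6.63 in tI-3. Ind-8 lay wholly above both other lines. The increase was 2.31-fold over Con-3 (log2 difference 1.21, SE 0.13, limma adjusted p = 0.00021) and 2.01-fold over tI-3 (1.01, SE 0.15, limma adjusted p = 0.00105). With the control level as a block the latter became 0.93 (limma adjusted p = 0.089). Anxa5, a phospholipid-binding anticoagulant, was higher in tI-3 than in Con-3 (0.49, limma adjusted p = 0.00709), though not without tI-3 replicate 1 (0.43, limma adjusted p = 0.0553). After quantile normalization it also passed as lower in Ind-8 than in tI-3 (-0.36, limma adjusted p = 0.0236).

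Of 11 measured genes of the plasminogen system, 4 (36.4%, beside 15.6% of all probe sets) were higher in Ind-8 than in tI-3, among them Serpinb2, Plgrkt and Mrc2. The list's median difference was 0.04, beside -0.06 over all probe sets. In Ind-8 against Con-3, 0 of the 11 passed in limma, beside 10.9% and 11% of all probe sets, although the 95% interval of 1 gene (Serpinb2) did not include 0, and the list's median was -0.011. In tI-3 against Con-3, 0 were higher in limma and 2 lower (Plgrkt and Mrc2, 18.2%, beside 15.1%), with a median of -0.10. Serpinb2 encodes a serpin that inhibits urokinase. Its values were 10.38, 9.88 and 8.66 in Ind-8, 9.34, 8.04 and 7.37 in Con-3, and 7.81 and 7.56 in tI-3. They spread widely within Ind-8 and Con-3 and little within tI-3. Ind-8 exceeded tI-3 by 1.95 (SE 0.55, limma adjusted p = 0.0226). The call was lost without Ind-8 replicate 1, Ind-8 replicate 2, tI-3 replicate 1 or tI-3 replicate 2, where the differences were 1.58, 1.83, 2.08 and 1.83 (limma adjusted p = 0.0691, 0.0644, 0.0714 and 0.132). With the control level as a block the difference was 0.64 (limma adjusted p = 0.722). Against Con-3, Serpinb2 differed by 1.39 (SE 0.49) and did not pass (limma adjusted p = 0.0687). It did pass without Ind-8 replicate 3 (1.88, limma adjusted p = 0.0154) or Con-3 replicate 1 (1.93, limma adjusted p = 0.0111). With the replicate number as a block it passed as well (1.39, SE 0.17, limma adjusted p = 0.00082).

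Mrc2 encodes a collagen receptor that associates with the urokinase receptor. Its values were 7.18, 7.18 and 7.11 in Ind-8, 7.25, 7.46 and 7.09 in Con-3, and 5.95 and 6.18 in tI-3, so tI-3 alone was low. It was down-regulated in tI-3 by a log2 difference of -1.20 against Con-3 (SE 0.12, limma adjusted p = 0.000138), and Ind-8 exceeded tI-3 by 1.09 (SE 0.12, limma adjusted p = 0.000265). With the control level as a block the latter was 0.83 (limma adjusted p = 0.0506). Plgrkt, a plasminogen receptor, was also lower in tI-3, by -0.38 than in Con-3 (limma adjusted p = 0.0257), and Ind-8 exceeded tI-3 by 0.54 (limma adjusted p = 0.00461). Both calls were lost without tI-3 replicate 2, where the differences were -0.26 and 0.43. They were lost as well with the control level as a block, where the differences stayed at -0.38 and 0.54. The first call was also lost without Con-3 replicate 2 (-0.36, limma adjusted p = 0.0748) and after quantile normalization (-0.26, limma adjusted p = 0.0787). Plg, plasminogen itself, was dim at 3.89 to 4.52 and passed in no comparison.

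Of the receptors for thrombin and related proteases, F2rl1, the protease-activated receptor that trypsin-like proteases cleave, was highest in Con-3. Its values were 4.94, 5.16 and 5.06 in Ind-8, 6.26, 6.59 and 5.83 in Con-3, and 5.22 and 5.01 in tI-3. It was 2.26-fold lower in Ind-8 than in Con-3 (log2 difference -1.17, SE 0.17, limma adjusted p = 0.000915) and 2.16-fold lower in tI-3 (-1.11, SE 0.19, limma adjusted p = 0.00183). Ind-8 and tI-3 differed by -0.06 (SE 0.19), but by -0.66 with the control level as a block (limma adjusted p = 0.138). The same block gave -0.72 for tI-3 against Con-3 (limma adjusted p = 0.0273). F2r, the main thrombin receptor, lay between 10.59 and 11.40 and passed in no comparison over all 8 arrays. Without Con-3 replicate 1 it was higher than in Con-3 in both other lines (0.52 in each, limma adjusted p = 0.0335 for Ind-8 and 0.0432 for tI-3).

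Lrp1 is the endocytic receptor that clears protease and inhibitor complexes, including those with Tfpi and the plasminogen activators. Its values were 11.41, 11.04 and 11.23 in Ind-8, 10.21, 10.52 and 10.33 in Con-3, and 10.22 and 10.53 in tI-3. Ind-8 lay above both other lines, which overlapped. The increase was 1.83-fold over Con-3 (log2 difference 0.87, SE 0.13, limma adjusted p = 0.00116) and 1.81-fold over tI-3 (0.85, SE 0.14, limma adjusted p = 0.00231). With the control level as a block the latter was 0.82 (limma adjusted p = 0.118). Of the 6 clearance receptors, Lrp8 was the other to pass, with log2 differences from Con-3 of -0.76 in Ind-8 and -0.59 in tI-3. The latter call was lost without tI-3 replicate 2, where the difference was -0.57, and with the control level as a block (-0.59, limma adjusted p = 0.0635). In Ind-8 against Con-3, 16.7% of the list was higher and 16.7% lower, beside 10.9% and 11% of all probe sets. In Ind-8 against tI-3, 16.7% was higher and 0 lower, beside 15.6% and 15.5%. In tI-3 against Con-3, 0 were higher and 16.7% lower, beside 10.2% and 15.1%. Each 16.7% is 1 gene.

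Ggcx, the carboxylase that uses vitamin K to modify clotting factors and protein S, was ordered Ind-8, Con-3, tI-3. Its values were 7.40, 7.21 and 7.09 in Ind-8, 6.51, 6.43 and 6.11 in Con-3, and 5.57 and 4.99 in tI-3, with no overlap. Ind-8 exceeded Con-3 by 0.88 (SE 0.16, limma adjusted p = 0.00357) and tI-3 by 1.95 (SE 0.18, limma adjusted p = 8.35e-05), and tI-3 was lower than Con-3 by -1.07 (SE 0.18, limma adjusted p = 0.00193). These calls of Ggcx held under both scalings, both blocks and each array left out. Vkorc1, which recycles vitamin K, was higher in Ind-8 than in tI-3 (0.70, limma adjusted p = 0.00771), but not without tI-3 replicate 2 (0.55, limma adjusted p = 0.0873) or with the control level as a block, where the difference was larger (0.89, limma adjusted p = 0.1). Without Con-3 replicate 1 it was lower in tI-3 than in Con-3 (-0.55, limma adjusted p = 0.0247).

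**Figure D3:**
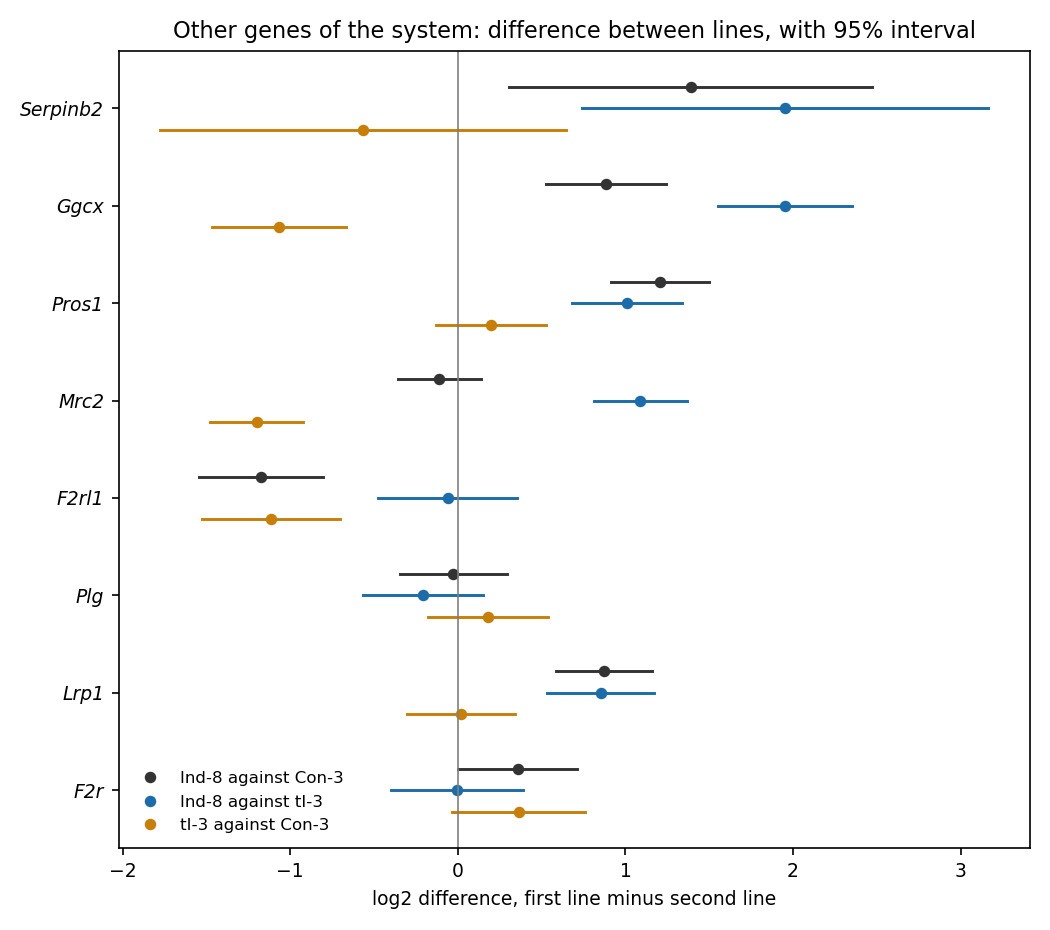
Log2 difference between lines for 8 other genes of the system (points, first line minus second) with 95% intervals (lines) from the fit over all 8 arrays. Pros1, Lrp1 and Ggcx have positive differences for Ind-8 against both other lines, F2rl1 is lower than Con-3 in both, and the wide intervals of Serpinb2 follow its spread within lines.

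Finally, the genes most like Tfpi over the 8 arrays were sought among 974 distinct probe sets whose line means spanned at least 1 log2 unit. Pearson r was 0.990 for Adh7, an alcohol dehydrogenase, 0.982 for Asf1b, a histone chaperone, 0.980 for Taf4b, a subunit of a general transcription factor, 0.974 for Birc5, a mitotic regulator, and 0.971 for Cdc25c, a phosphatase that promotes entry into mitosis. The 8 arrays form 3 lines, so r mostly reflects the order of the line means. Adh7 had line means of 5.74, 7.50 and 7.02 in Ind-8, Con-3 and tI-3, and Birc5 had 10.35, 11.41 and 11.02. All 5 were lowest in Ind-8 and highest in Con-3, as Tfpi was, an order that a search by r favours. Their line means lay closer together than those of Tfpi. Plat was the other of the 9 genes whose line means spanned 1 unit (1.04), and the genes most like it were Ttc30b (r = 0.940), Synm (0.916) and Adamtsl4 (0.909).

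**Figure D4:**
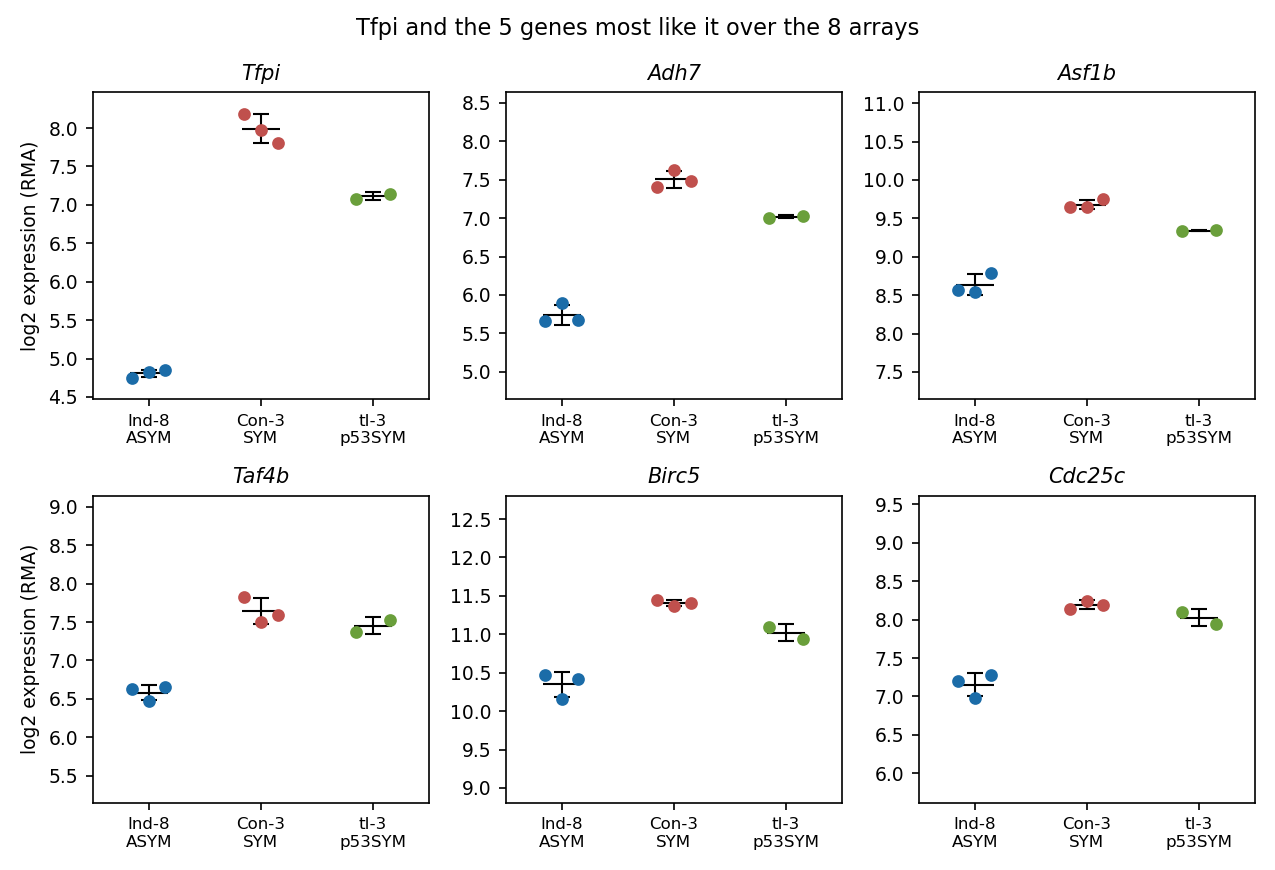
Log2 expression of Tfpi and of the 5 genes most like it on each of the 8 arrays, by line (points), with the line mean and SD (horizontal mark and bars); each panel spans 4 log2 units. All 6 genes are lowest in Ind-8 and highest in Con-3, an order that the search favours. Means are 4.81 and 7.99 for Tfpi and 5.74 and 7.50 for Adh7.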

How the data were processed

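The authors summarized 8 Affymetrix mouse arrays by RMA, with probes regrouped by RefSeq transcript, and deposited log2 values. These were used without further normalization. The 64 control probe sets were set aside, and 18294 of 22523 probe sets (81.2%) were named through RefSeq (GRCm38.p6, names and promoter windows). Probe sets with values equal to 6 decimals counted once for genes and in the search for genes like Tfpi and Plat. Counts and shares over all probe sets kept such repeats. With the 18172 distinct probe sets only, 3827, 5584 and 4694 passed in Ind-8 against Con-3, Ind-8 against tI-3 and tI-3 against Con-3. Medians ran from 6.12 to 6.19; the number of arrays limits precision. Line means were compared in 1 fit of all arrays with limma 3.58.1 (R 4.3.3) and p-values adjusted by Benjamini-Hochberg; the code was tested on simulated data. Alternatives were other scalings, blocks, filters and priors, each array left out, and a rank product test with 100 permutations. Tables were made in Python 3.11.15. A gene was counted by its distinct probe set with the highest mean. The replicates were separate preparations of 1 line each, so p-values measure the spread within a line. The 9 genes, the gene and marker lists and the alternatives were chosen with earlier results of these data known. Named genes are the 9, the label checks, Serpinb2, Plg, Lrp1 and F2r, listed genes passing with an absolute log2 difference of at least 1, and those most like Tfpi and Plat; F2, Kng1, Vwf, Anxa5, Plgrkt, Lrp8 and Vkorc1, other listed genes that passed, were named after their values were seen. A result withheld for evaluation is not reported here, though list counts include it.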

Additional observations from a re-analysis of the deposited data

How the results depend on the processing

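Against 4942, 7009 and 5715 probe sets called in Ind-8 against Con-3, Ind-8 against tI-3 and tI-3 against Con-3, the rank product test called 813, 451 and 518, a further minimum absolute log2 difference of 1 left 464, 681 and 735, and the control level as a block gave 708 in the second and 3066 in the third. Leaving out each array gave 3493 to 4637, 2781 to 7261 and 3093 to 5625. Of the 9 genes, limma placed 4, 4 and 2 past the threshold, the rank product test 1, 1 and 0, and the minimum difference left 1, 2 and 0; the control level as a block left 3 in the first and 1 in the second, and arrays left out gave 3 to 4, 3 to 5 and 1 to 3. Of the other genes of the system, 5, 10 and 9 passed; the minimum difference left 2, 4 and 3, the rank product test left 2 in each of the last pair, the block left 1 and 4 there, quantile normalization left 5 in the third, and arrays left out gave 5 to 9, 4 to 12 and 4 to 9. The replicate block gave 5382, 8341 and 6376 probe sets, 6, 5 and 4 of the 9 genes and 7, 12 and 10 other genes. With it Serpinb2 passed in Ind-8 against Con-3 (1.39, SE 0.17, limma adjusted p = 0.00082) as well as against tI-3 (2.42, limma adjusted p = 0.000158), and the call of Vwf moved from tI-3 against Con-3 (0.41, limma adjusted p = 0.0687) to Ind-8 against Con-3 (0.41, limma adjusted p = 0.0414). The numbers were not taken to pair the arrays. Deviations of same-numbered Ind-8 and Con-3 arrays correlated at 0.27, 0.0286 and 0.381. Replicates 1 and 3 of Ind-8 correlated best with the Con-3 array of their number, and Ind-8 replicate 2 with Con-3 replicate 1 (0.117). Same-numbered arrays of tI-3 correlated at 0.00926 and -0.225 with Ind-8 and at 0.205 and 0.0424 with Con-3. Log2 differences of the tested genes that changed sign passed neither in the fit over all arrays nor where the sign changed: Serpinb2, tI-3 against Con-3, was 0.31 with the control level as a block, though it passed with the replicate block (-1.03, limma adjusted p = 0.00663); F2rl1, Ind-8 against tI-3, was 0.10 after quantile normalization and 0.037 with the replicate block (arrays left out, -0.17 to 0.044); Plg, Ind-8 against Con-3, was 0.039 after quantile normalization (-0.19 to 0.13); Lrp1, tI-3 against Con-3, ran from -0.13 to 0.17 over arrays left out; F2r, Ind-8 against tI-3, was 0.084 with the replicate block (-0.15 to 0.10); F2, Ind-8 against Con-3, was 0.0039 after quantile normalization and 0.03 with the control level as a block (-0.089 to 0.029); Vwf, Ind-8 against tI-3, was 0.13 after quantile normalization and 0.0079 with the replicate block (-0.21 to 0.10); Kng1, Ind-8 against Con-3, ran from -0.24 to 0.020; Mt1 was -0.089 in Ind-8 against tI-3 and 0.20 in tI-3 against Con-3 after quantile normalization (-0.26 to 0.044 in the latter). Of the 9 genes, the sign changed for F3 in tI-3 against Con-3 (-0.11 without Con-3 replicate 3, -0.085 with the replicate block), for Thbd in Ind-8 against tI-3 (0.22 with the control level as a block) and in tI-3 against Con-3 (-0.24 with that block, -0.12 to 0.15 over arrays left out), for Tfpi2 in Ind-8 against Con-3 (-0.047 to 0.046 over all alternatives) and in Ind-8 against tI-3 (0.018 after quantile normalization), and for Serpine2 in tI-3 against Con-3 (0.051 without tI-3 replicate 1). The call of Trp53 in tI-3 against Con-3 was also lost with the control level as a block (limma adjusted p = 0.102), where the difference was 0.38 instead of 0.39. The cause was not tested for any of these. The 9 genes have no other distinct probe set, so that alternative could not be run for them. Signal near the dim level limits Tfpi2, Thbd, Serpine2, Plg, Kng1 and Vwf, and the Ind-8 values of Tfpi.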
